A study of Rattus norvegicus with 15 samples.

Results

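The proteasome genes described here are the 46 rat genes whose probe sets carry a single gene symbol beginning with Psma, Psmb, Psmc, Psmd, Psme, Psmf or Psmg and a number. They have 60 of the 31099 probe sets on the arrays and stand among 14217 genes that have a probe set of 1 symbol. Where a gene has several probe sets, the brightest on average over the 15 arrays represents it, and all 46 representatives passed the filter on dim probe sets, as did 11510 genes in all. By what is known of them, 44 of the 46 encode proteasome subunits, activators, inhibitors or assembly chaperones. The other 2, Psmc3ip, a partner of the recombinases of meiosis, and Psme3ip1, a protein that binds the activator Psme3, match the symbol rule by name only. Psmb6, Psme3 and a further probe set of Psma3 lie on 6 probe sets that carry several symbols and are not included.

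The rats were male Sprague Dawley animals, 10 to 12 weeks old, and RNA of their subfornical organ was measured on 15 Affymetrix arrays, 5 in each of 3 groups. The groups were food-deprived rats, denied food for 48 hours, water-deprived rats and untreated control rats. Every array carried the pooled organs of 5 animals, so that 25 animals stand behind a group, and an array shows the mean of a pool and not the spread between animals. The length of water deprivation is not given in the sources used here, and the design text, read literally, applies the 48 hours without food to every condition. The organ is a bulk tissue, in which fewer cells of a type and less RNA per cell cannot be told apart.

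The proteasome is the protease that degrades proteins tagged with ubiquitin. Its 20S core is a barrel of outer rings of alpha subunits and inner rings of beta subunits, of which Psmb5, Psmb6 and Psmb7 carry the active sites, and under interferon these give way to Psmb8, Psmb9 and Psmb10 to form the immunoproteasome. The 19S cap holds a ring of ATPases (Psmc genes) that unfolds the substrate and non-ATPase subunits (Psmd genes) that bind and deubiquitinate it, and the transcription factor Nfe2l1 raises the subunit genes together when proteasome activity falls short.

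Signals are deposited array intensities in scaled units, with an equal trimmed mean on every array, and are listed below in replicate order, which carries no meaning. Differences are log2 fold changes on the log2(signal + 16) scale with the standard error (SE) of a limma fit to all 15 arrays, and a gene passed the test when its p-value, adjusted over all 21729 probe sets tested, was below 0.05. Levels were not compared between genes, since probe sets differ in brightness.

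Control probe sets that read Actb and Gapdh at their 5′ and at their 3′ end divide the arrays into 2 sets, which touch every comparison. The mean log2 ratio of 5′ to 3′ signal lay between -0.86 and -0.71 on all 5 food-deprived arrays and on water-deprived arrays 1 and 2, the high set of 7 arrays. It lay between -2.81 and -1.24 on water-deprived arrays 3 to 5 and all 5 control arrays, the low set of 8 arrays. No food-deprived array shares a set with a control array, so food deprivation and array set cannot be told apart in these 2 groups alone. A second fit has the array set as a term, and in it the water-deprived difference rests on water-deprived arrays 3 to 5 against the controls, and the food-against-water difference on the food-deprived arrays against water-deprived arrays 1 and 2. The food-deprived difference in that fit is the sum of those 2 differences. The fit takes the difference between the sets to be the same in every group, which these arrays cannot test. Values from it are given below as values with the array set as a term. Of the genes known for this organ, Agtr1a, the angiotensin II receptor, Scn7a, a sodium-sensing channel, and Calcr, the calcitonin receptor, were above the filter, while Nos1, the neuronal nitric oxide synthase, was not.

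On the representative probe sets the differences across the 46 genes were small. In food-deprived against control arrays, 4 genes passed as higher, Psmc6, Psmd4, Psmb2 and Psmc3, which is 8.70% of the 46 beside 3.12% of all genes tested. In the other direction 1 gene passed, Psmb10, which is 2.17% of the 46 beside 2.62% of all genes tested. When each array was left out in turn the count of higher genes ran from 0 to 7, at 0 without food-deprived array 1, 2 or 3 or control array 1, 3 or 5 and at 7 without water-deprived array 3, and the count of lower genes ran from 0 to 3. By the representative probe set, none of the 46 was past 1.5-fold in any of the 3 comparisons. Past 1.2-fold were 13 of 46 for food deprivation, 7 of 46 for water deprivation and 4 of 46 for food against water deprivation. The share of all genes tested past these bounds was not counted. Further probe sets of Psmd14, Psme4 and Psmd9 were past 1.5-fold for food deprivation, at 3.53-fold (adjusted p = 0.0033), 1.55-fold (0.053) and 1.51-fold (0.11). The median difference between food-deprived and control arrays was 0.075 over the 46 genes, of which 32 lay above 0, beside 0.027 over all genes tested, of which 6275 of 11510 lay above 0. Centring each array on its median, which shifts every gene alike, lowered both medians to -0.026 and -0.075, and 20 of the 46 genes then lay above 0. Quantile normalization gave 0.11, with 34 of the 46 above 0, beside 0.011 over all genes. The members' median exceeded that of all genes by 0.048 as deposited and by 0.096 with quantile normalization. The median of the 46 with the array set as a term was -0.018, with 20 above 0, beside 0.0076 over all genes, with 5871 above 0. In that fit 24 of the 46 differences changed sign, a count not made over all genes. With the 5′/3′ ratio itself as a covariate none of the 5 calls passed, at 0.41 for Psmc6 (adjusted p = 0.29), 0.27 for Psmd4 (0.24), 0.21 for Psmb2 (0.36), 0.23 for Psmc3 (0.23) and -0.38 for Psmb10 (0.11).

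In water-deprived against control arrays 0 genes of the 46 passed in either direction in limma, beside 0.00869% of all genes tested as higher and 0% as lower, and 10 of the 46 had an unadjusted p below 0.05, as did 758 of all 11510 genes. The median difference was 0.082 over the 46 genes, with 33 above 0, beside -0.00050 over all genes, with 5741 above 0. It remained 0.074 with median centring and 0.081 with quantile normalization, beside -0.0086 and 0.00060 over all genes. With the array set as a term it was 0.066, with 32 of the 46 above 0, beside -0.0078 over all genes, with 5509 above 0. In food-deprived against water-deprived arrays 0 genes of the 46 passed in limma, beside 0% of all genes as higher and 0.0956% as lower, and 7 of the 46 had an unadjusted p below 0.05, as did 1438 of all genes. The median difference there was -0.021, with 22 above 0, beside 0.022 over all genes. It was -0.11 with median centring and 0.027 with quantile normalization, beside -0.071 and 0.0035 over all genes. The comparisons of food and of water deprivation use the same 5 control arrays, so their values are given side by side and not related to each other.

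The arrays of the food-deprived and control groups did not overlap for 10 of the 46 genes. Psmb2, Psmc3, Psmc6, Psmd3, Psmd4, Psmd8, Psmd13 and Psmg3 were higher on every food-deprived than on every control array, beside 6.82% of all genes tested, and Psmb10 and Psmd7 were lower, beside 5.24%. For water-deprived against control arrays Psmb2 alone of the 46 was higher on every array, beside 0.460% of all genes, and 0 were lower, beside 0.330%. For food-deprived against water-deprived arrays 0 of the 46 separated in either direction, beside 1.80% higher and 1.36% lower among all genes.

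**Figure D1:**
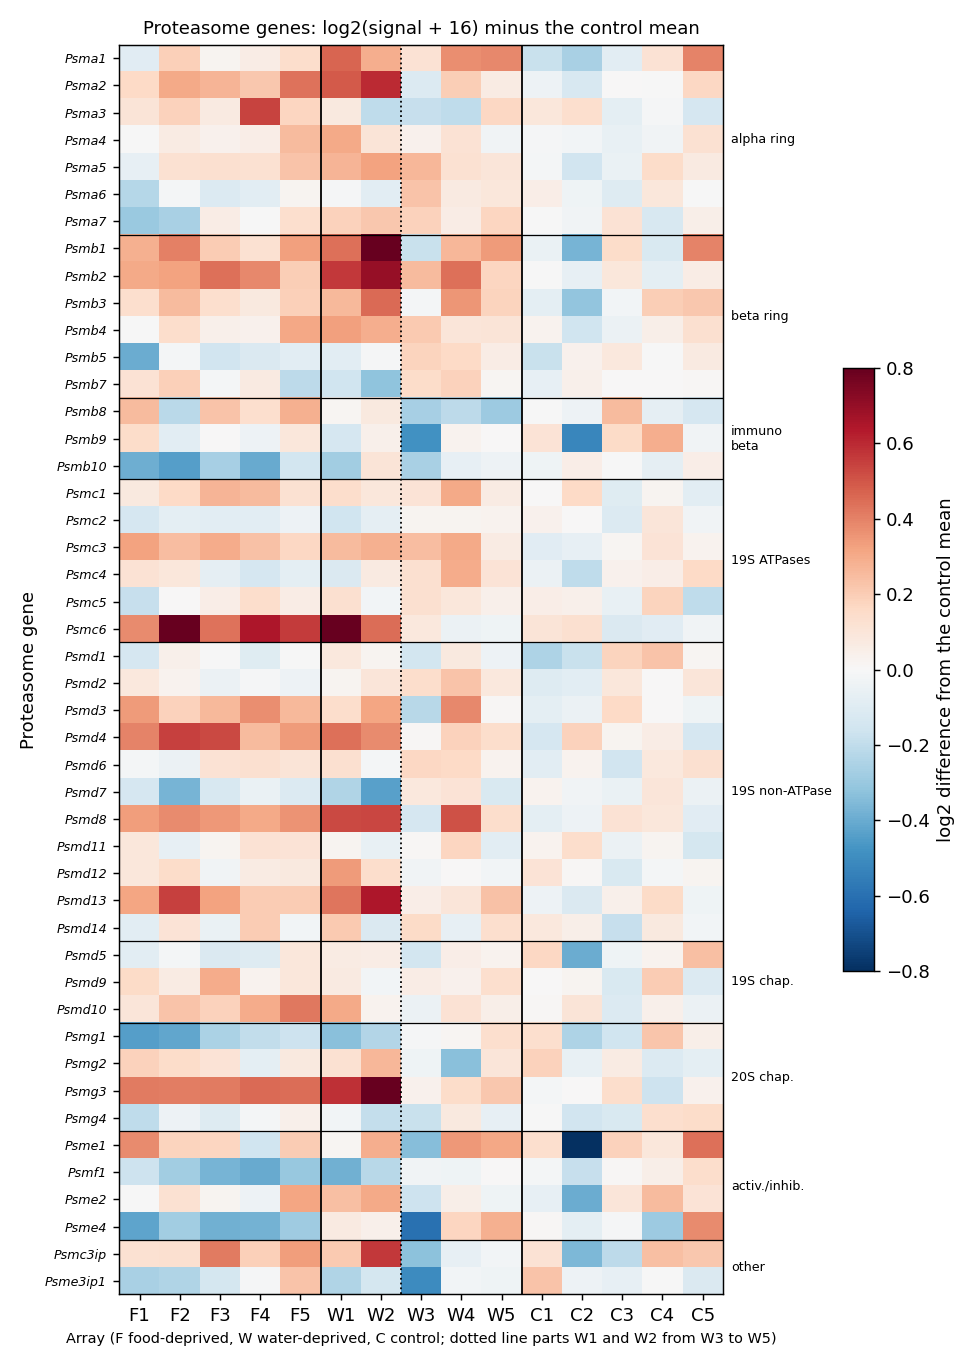
Each cell is the log2(signal + 16) of 1 proteasome gene (rows, grouped by role) on 1 array (columns) minus that gene's mean over the 5 control arrays, with colours saturating at 0.8 in either direction. The rows of Psmc6, Psmd4, Psmb2, Psmd13 and Psmg3 are red on the 5 food-deprived arrays, and the first and second water-deprived arrays, left of the dotted line, are red in these rows as well.

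The alpha subunits form the outer rings of the core and its gate. Of 7 alpha genes measured, 0 passed in any comparison, and their median difference from control was 0.080 for food deprivation, with 5 of 7 above 0, and 0.16 for water deprivation, with 6 of 7 above 0. The food-deprived median turned to -0.028 with the array set as a term, with 2 of 7 above 0, and the water-deprived median was 0.13. The Psma1 signal was 570.3, 697, 618, 633 and 672 in the food-deprived arrays, 846, 748, 661, 789.8 and 798 in the water-deprived arrays and 536, 506, 573, 661 and 805 in the control arrays. Its groups overlap, and the highest value is on water-deprived array 1. The difference from control was 0.065 ± 0.12 for food deprivation and 0.33 ± 0.12 for water deprivation, with adjusted p = 0.72 and an unadjusted p of 0.012, and 0.29 for water deprivation with the array set as a term.

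Psma3 had the smallest unadjusted p among genes that were higher in food-deprived than in water-deprived arrays. Its signal was 229, 243, 224, 316 and 241 in the food-deprived arrays, 225, 182, 185, 182 and 239 in the water-deprived arrays and 227, 234, 199.8, 211 and 192 in the control arrays. Food-deprived array 4 stands above all others, and the groups overlap. The food-minus-water difference was 0.28 ± 0.11 (adjusted p = 0.23). Psma7 lay on the other side. Its signal was 639, 657, 821, 786 and 866 in the food-deprived arrays, 899.6, 919.6, 896, 824 and 891 in the water-deprived arrays and 786, 773, 857, 718 and 813 in the control arrays. Food-deprived arrays 1 and 2 are the lowest of the 15, and the other 3 food-deprived arrays lie within the range of the control or water-deprived arrays. The food-minus-water difference was -0.24 ± 0.091 (adjusted p = 0.22), and -0.28 with the array set as a term. The other alpha genes, Psma2, Psma4, Psma5 and Psma6, had food-minus-control differences of 0.28, 0.080, 0.11 and -0.082 and water-minus-control differences of 0.25, 0.11, 0.21 and 0.060, and none passed. The food-deprived Psma2 difference turned to -0.22 with the array set as a term.

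Of the constitutive beta subunits, Psmb2 rose in food-deprived arrays and was the gene of the 46 with the smallest p in water-deprived arrays. Psmb2 is a structural beta subunit that lacks proteolytic activity of its own, encoded at chromosome 5, 144255058 to 144287200 (GRCr8). Its signal was 572, 579.7, 630.4, 607 and 531 in the food-deprived arrays, 689.6, 756, 552, 632 and 520.5 in the water-deprived arrays and 459, 439, 491, 436 and 480.2 in the control arrays. Every food-deprived and every water-deprived array lies above every control array, and the food-deprived and water-deprived arrays overlap. Means were 584 ± 37.5 in food-deprived, 629.9 ± 96.8 in water-deprived and 461 ± 24.3 in control arrays (SD, n = 5 each). The food-deprived difference was 0.33 ± 0.099, a 1.26-fold change with adjusted p = 0.049, and the call ended when any 1 food-deprived or control array or water-deprived array 4 was left out. Median centring, an offset of 1, testing without a filter or with one at the 50th percentile and a variance without a trend also ended it, and the adjusted p-values over all these settings ran up to 0.12. With the array set as a term the food-deprived difference was -0.011 ± 0.13 (adjusted p = 0.99).

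For water deprivation the Psmb2 difference was 0.43 ± 0.099, a 1.34-fold change that did not pass (adjusted p = 0.39, unadjusted p = 0.00054). Water-deprived arrays 1 and 2, of the high set, are the highest of the 15, and water-deprived arrays 3 to 5, of the same set as the controls, also lie above all controls. With the array set as a term the water-deprived difference was 0.29 ± 0.087 (adjusted p = 0.59), between 0.21 and 0.35 when each array was left out in turn.

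The 250 bases before the RefSeq start of Psmb2 (chr5:144254808-144255057, plus strand, GRCr8) are shown because they hold, in capitals, both letters searched that are known from proteasome promoters, CCAAT and the core of the antioxidant response element, TGACNNNGC, the element that Nfe2l1 and Nfe2l2 bind.
Psmb2: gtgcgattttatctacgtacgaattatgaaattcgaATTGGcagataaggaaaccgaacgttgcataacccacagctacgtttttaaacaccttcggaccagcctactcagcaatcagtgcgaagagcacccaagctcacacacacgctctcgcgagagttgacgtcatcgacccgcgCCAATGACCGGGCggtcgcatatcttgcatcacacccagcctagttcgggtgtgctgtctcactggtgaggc
The first capitals are CCAAT on the opposite strand, and in the second run a CCAAT and a TGACNNNGC overlap. Both strands were searched, and 42 of the 46 genes have such a window, all but Psma7, Psmd6, Psmd12 and Psmd14. TGACNNNGC occurred in 6 of 42 (14.3%) windows of these genes, Psma3, Psmb2, Psmb5, Psmd1, Psmd9 and Psme4, beside 10.1% of 33469 windows of all genes, and CCAAT in 21 of 42 (50%) beside 34.0%. These matches are a description of letters and not of binding. The 33469 windows are all those of the promoter collection and are not limited to genes measured on the arrays.

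The other constitutive beta genes did not pass. Psmb5 encodes the subunit with chymotrypsin-like activity. Its signal was 881, 1151, 1044, 1075 and 1096 in the food-deprived arrays, 1099, 1158, 1321, 1301 and 1213 in the water-deprived arrays and 1026, 1190.1, 1234, 1159.7 and 1224 in the control arrays. The groups overlap, and food-deprived array 1 is the lowest of the 15. The food-deprived arrays differed from control by -0.15 ± 0.087 and from water-deprived arrays by -0.22 ± 0.087, with adjusted p = 0.25 for the second. Psmb7 encodes the subunit with trypsin-like activity. Its signal was 689, 728, 627, 669 and 546 in the food-deprived arrays, 566, 505, 703, 723 and 643 in the water-deprived arrays and 607, 655, 637, 638 and 639 in the control arrays. The 3 groups overlap, while water-deprived arrays 1 and 2 lie below water-deprived arrays 3 to 5. The food-minus-control difference was 0.030 ± 0.10 without the array set and 0.39 ± 0.14 with the array set as a term (adjusted p = 0.51). Psmb1, Psmb3 and Psmb4, structural subunits of the beta ring, had food-minus-control differences of 0.27, 0.16 and 0.10 and water-minus-control differences of 0.33, 0.25 and 0.21, with adjusted p-values of 0.30 or more and 0.73 or more. Over the 6 constitutive beta genes the median was 0.13 for food deprivation and 0.23 for water deprivation, with 5 of 6 above 0 in each. With the array set as a term it was -0.017 and 0.14.

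Of the 3 immunoproteasome genes, Psmb10 fell in food-deprived arrays. Psmb10 replaces Psmb7 in the immunoproteasome and is encoded at chromosome 19, 50740808 to 50743292 (GRCr8). Its signal was 130.1, 125, 143, 129 and 157 in the food-deprived arrays, 142, 189, 144, 167 and 170.0 in the water-deprived arrays and 171, 183, 175, 166 and 183 in the control arrays. Every food-deprived array lies below every control array, and the water-deprived arrays overlap both other groups. Means were 137 ± 13.2 in food-deprived, 162 ± 19.9 in water-deprived and 175 ± 7.45 in control arrays (SD, n = 5 each). The difference was -0.33 ± 0.094, a 1.26-fold decrease with adjusted p = 0.043. The call ended when food-deprived array 1, 2, 3 or 4, water-deprived array 5 or any control array was left out, with differences from -0.37 to -0.30 and adjusted p-values up to 0.099, and with quantile normalization (adjusted p = 0.062).

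The food-deprived Psmb10 difference with the array set as a term was -0.36 ± 0.16 (adjusted p = 0.57), close to that without it, with a larger SE, and between -0.55 and -0.17 when each array was left out. The difference between water-deprived arrays 1 and 2 and arrays 3 to 5 was 0.032 ± 0.13. Against water-deprived arrays the food-deprived difference was -0.22 ± 0.094 (adjusted p = 0.27), and water-deprived arrays differed from control by -0.11 ± 0.094 (adjusted p = 0.83).

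Psmb8 and Psmb9, which stand for Psmb5 and Psmb6 in the immunoproteasome, did not pass. The Psmb8 signal was 127, 87.1, 124, 115 and 129.6 in the food-deprived arrays, 105, 110.1, 83.5, 87.7 and 81.8 in the water-deprived arrays and 103, 100.5, 126, 97.7 and 92.9 in the control arrays. Food-deprived array 2 is low beside the other 4 of its group, and the groups overlap. The Psmb8 difference from control was 0.14 ± 0.12 for food deprivation and -0.13 ± 0.12 for water deprivation, and food-deprived exceeded water-deprived arrays by 0.27 ± 0.12 (adjusted p = 0.28). The Psmb9 signal was 276, 232, 248, 241 and 264 in the food-deprived arrays, 224, 256, 172, 252 and 249 in the water-deprived arrays and 268, 167, 277, 306 and 243 in the control arrays. Water-deprived array 3 and control array 2 are the lowest, and the groups overlap. Its difference from control was 0.023 ± 0.14 for food deprivation and -0.11 ± 0.14 for water deprivation. All 3 immunoproteasome genes lay, with the array set as a term, below 0 for food and for water deprivation, at -0.16, -0.083 and -0.36 for food and -0.25, -0.15 and -0.12 for water deprivation, and none passed.

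Shown here are the 250 bases before the start of Psmb10 (chr19:50743293-50743542, minus strand, GRCr8). Psmb10 was chosen as the 1 gene of the 46 that passed as lower in food-deprived arrays and as an interferon target. Capitals mark GAAANNGAAA, the core of the interferon-stimulated response element, a motif searched after the sequence had been seen.
Psmb10: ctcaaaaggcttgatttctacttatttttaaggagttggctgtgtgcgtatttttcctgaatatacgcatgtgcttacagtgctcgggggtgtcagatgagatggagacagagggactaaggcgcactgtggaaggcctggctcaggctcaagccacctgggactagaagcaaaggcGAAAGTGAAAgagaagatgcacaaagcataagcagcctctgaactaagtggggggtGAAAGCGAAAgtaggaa
The motif occurs at 2 places in this window, and in 5 of 42 (11.9%) windows of these genes, Psma4, Psmb3, Psmb10, Psmd7 and Psme2, beside 3.41% of all windows. Psmb10 is among these 5 by that choice of motif, so nothing is drawn from the 2 shares. A STAT site, TTCNNNGAA, occurred in 4 of 42 (9.52%), Psmb8, Psmc6, Psmd3 and Psmd7, beside 7.67%. The interferon and antigen-processing genes gave 1 of 14 tested as higher in food-deprived than in control arrays, Ifit1, an interferon-induced RNA-binding protein (0.61, adjusted p = 0.040, and -0.16 with the array set as a term), and 0 as lower, beside 3.12% and 2.62% of all genes tested.

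Markers of microglia and macrophages, cells that express the immunoproteasome, are given beside these values. For food deprivation 0 of 11 tested markers passed and 7 of 11 lay above 0, with a median difference from control of 0.035, and for water deprivation 0 passed and 1 of 11 lay above 0, with a median of -0.38. The summed signal of the list ranged from 2104 to 2819 on food-deprived, 1639 to 2932 on water-deprived and 1819 to 3329 on control arrays, with no defining marker at 0 and Itgam below the filter. Their part in the values of Psmb8, Psmb9 and Psmb10 was not tested.

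Of the 6 ATPases of the 19S base, Psmc6 and Psmc3 rose in food-deprived arrays. Psmc6, at chromosome 15, 21022314 to 21043785 (GRCr8), had the largest food-deprived difference of the 46. Its signal was 328, 452, 342, 400.1 and 376 in the food-deprived arrays, 478, 346, 265, 241 and 243 in the water-deprived arrays and 269, 274, 229, 233 and 245 in the control arrays. All food-deprived arrays lie above all controls, and water-deprived arrays 1 and 2 lie within or above the food-deprived range while arrays 3 to 5 lie among the controls. Means were 379 ± 49.4 in food-deprived, 315 ± 101 in water-deprived and 249.9 ± 20.6 in control arrays (SD, n = 5 each). The food-deprived difference was 0.57 ± 0.16, a 1.48-fold change with adjusted p = 0.039. The call ended with median centring (adjusted p = 0.052) and when any 1 food-deprived array or control array 1, 3, 4 or 5 was left out, with adjusted p-values up to 0.094. With the array set as a term it was -0.10 ± 0.18 (adjusted p = 0.89), and water-deprived arrays 1 and 2 exceeded arrays 3 to 5 by 0.67 ± 0.15 (adjusted p = 0.0098).

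Psmc6 has 2 further tested probe sets that did not pass, with food-deprived differences of 0.11 ± 0.17 and -0.042 ± 0.17, the second of opposite sign to the representative. The second of these had signals of 99.8, 72.6, 63.0, 93.6 and 103 in the food-deprived arrays, 141, 68.5, 111, 99.8 and 91.6 in the water-deprived arrays and 124, 78.6, 72.6, 95.1 and 77.1 in the control arrays, with the groups overlapping. The food-against-water difference of the representative was 0.30 ± 0.16 (adjusted p = 0.37), and -0.11 with the array set as a term. Its water-deprived difference was 0.27 ± 0.16 (adjusted p = 0.76), and 0.0013 with the array set as a term. RefSeq lists 2 Psmc6 pseudogenes, and whether the probe sets also bind their transcripts was not tested.

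Psmc3, at chromosome 3, 97487643 to 97493025 (GRCr8), also rose in food-deprived arrays. Its signal was 475, 451, 468, 447 and 427 in the food-deprived arrays, 454, 465, 452, 469.9 and 396 in the water-deprived arrays and 353, 360.5, 382, 409.9 and 386 in the control arrays. All food-deprived arrays and 4 of 5 water-deprived arrays lie above all controls, and water-deprived array 5 lies within the control range. Means were 454 ± 18.9 in food-deprived, 447 ± 29.8 in water-deprived and 378 ± 22.4 in control arrays (SD, n = 5 each). The food-deprived difference was 0.25 ± 0.076, a 1.19-fold change with an adjusted p just under the threshold at 0.0497, and it was 0.19 ± 0.13 with the array set as a term (adjusted p = 0.66). The call ended when any 1 food-deprived or control array or water-deprived array 4 was left out (adjusted p up to 0.12), with median centring (0.26), an offset of 1 (0.052) and a variance without a trend (0.064). The water-deprived difference was 0.23 ± 0.076 (adjusted p = 0.72, unadjusted p = 0.0076) and 0.20 ± 0.082 with the array set as a term. Water-deprived arrays 1 and 2 differed from arrays 3 to 5 by 0.066 ± 0.10.

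The 250 bases before Psmc3 (chr3:97487393-97487642, plus strand) and Psmc6 (chr15:21022064-21022313, plus strand, both GRCr8) are shown beside each other. These are the 2 ATPase genes that passed as higher in food-deprived arrays.
Psmc3: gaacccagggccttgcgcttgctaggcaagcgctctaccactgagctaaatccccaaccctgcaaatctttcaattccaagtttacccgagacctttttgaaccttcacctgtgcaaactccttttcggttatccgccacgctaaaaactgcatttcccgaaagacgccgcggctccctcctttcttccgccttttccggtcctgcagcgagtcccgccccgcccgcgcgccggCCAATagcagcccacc
Psmc6: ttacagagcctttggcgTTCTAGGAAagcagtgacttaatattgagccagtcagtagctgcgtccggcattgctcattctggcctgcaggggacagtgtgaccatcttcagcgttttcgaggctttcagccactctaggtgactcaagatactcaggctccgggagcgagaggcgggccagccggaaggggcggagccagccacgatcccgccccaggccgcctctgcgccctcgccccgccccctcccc
Capitals mark a CCAAT near the start of Psmc3 and a TTCNNNGAA far from the start of Psmc6, and neither window holds TGACNNNGC or GAAANNGAAA. The other 4 ATPase genes did not pass. Their food-minus-control differences were 0.18 for Psmc1, -0.084 for Psmc2, -0.016 for Psmc4 and 0.015 for Psmc5, and their water-minus-control differences were 0.14, -0.032, 0.098 and 0.072. Over the 6 ATPases the median was 0.097 for food deprivation and 0.12 for water deprivation, and 0.12 for both with the array set as a term.

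Of the 11 non-ATPase subunits of the cap, Psmd4 rose in food-deprived arrays. Psmd4, at chromosome 2, 185287941 to 185297238 (GRCr8), is a receptor for ubiquitin chains. Its signal was 289.7, 322, 318, 259.8 and 278 in the food-deprived arrays, 299, 285, 217, 247 and 239.7 in the water-deprived arrays and 195, 248, 219, 226 and 195 in the control arrays. The lowest food-deprived array stands above the highest control array, and water-deprived arrays 1 and 2 lie in the food-deprived range while arrays 3 to 5 lie within the control range. Means were 294 ± 26.5 in food-deprived, 258 ± 33.6 in water-deprived and 217 ± 22.2 in control arrays (SD, n = 5 each). The difference was 0.41 ± 0.10, a 1.33-fold change with adjusted p = 0.026, and 0.12 ± 0.15 with the array set as a term (adjusted p = 0.84). Leaving out food-deprived array 1, 2 or 3 or control array 1, 3 or 5 ended the call, with adjusted p-values up to 0.070. The water-deprived difference was 0.23 ± 0.10 (adjusted p = 0.75).

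Psmd7, a subunit that pairs with the deubiquitinase Psmd14, did not pass. Its signal was 388, 328, 391, 411 and 396 in the food-deprived arrays, 359.7, 313, 455, 463 and 392 in the water-deprived arrays and 436, 420.2, 412, 459 and 414 in the control arrays. The highest food-deprived array lies just under the lowest control array, and water-deprived arrays 1 and 2 lie below water-deprived arrays 3 to 5. The food-deprived difference was -0.16 ± 0.10 and the water-deprived difference -0.12 ± 0.10, and both changed sign with the array set as a term, to 0.20 and 0.024. A second probe set of Psmd7 gave 0.44 ± 0.20 for food deprivation (adjusted p = 0.17) and 0.16 ± 0.20 for water deprivation, of the opposite sign in each. Psmd11, a scaffold subunit, had signals of 678, 607, 646, 691 and 686 in the food-deprived arrays, 647, 609.6, 639.6, 717 and 600.4 in the water-deprived arrays and 649, 704, 615, 645 and 575 in the control arrays. The groups overlap, and its differences from control were 0.053 ± 0.079 for food deprivation and 0.012 ± 0.079 for water deprivation. A second probe set of Psmd11 gave -0.35 ± 0.14 for food deprivation (adjusted p = 0.12), with all 5 food-deprived arrays below all controls. That value was 0.28 with the array set as a term.

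Psmd3, Psmd8 and Psmd13, further structural subunits of the cap, were higher on every food-deprived than on every control array without passing, with differences of 0.28 (adjusted p = 0.11), 0.35 (adjusted p = 0.080) and 0.32 (adjusted p = 0.094), and of 0.11, -0.015 and -0.094 with the array set as a term. Water-deprived differences of Psmd3, Psmd8 and Psmd13 were 0.12, 0.32 and 0.29 (adjusted p = 0.83, 0.72 and 0.72). With the array set as a term these were 0.057, 0.17 and 0.13. Psmd1, Psmd2, Psmd6 and Psmd12 lay at -0.040, 0.0036, 0.055 and 0.070 for food deprivation and at -0.00030, 0.11, 0.093 and 0.085 for water deprivation. Over the 11 genes the median was 0.055 for food deprivation and 0.093 for water deprivation, with 9 of 11 above 0 in each.

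**Figure D2:**
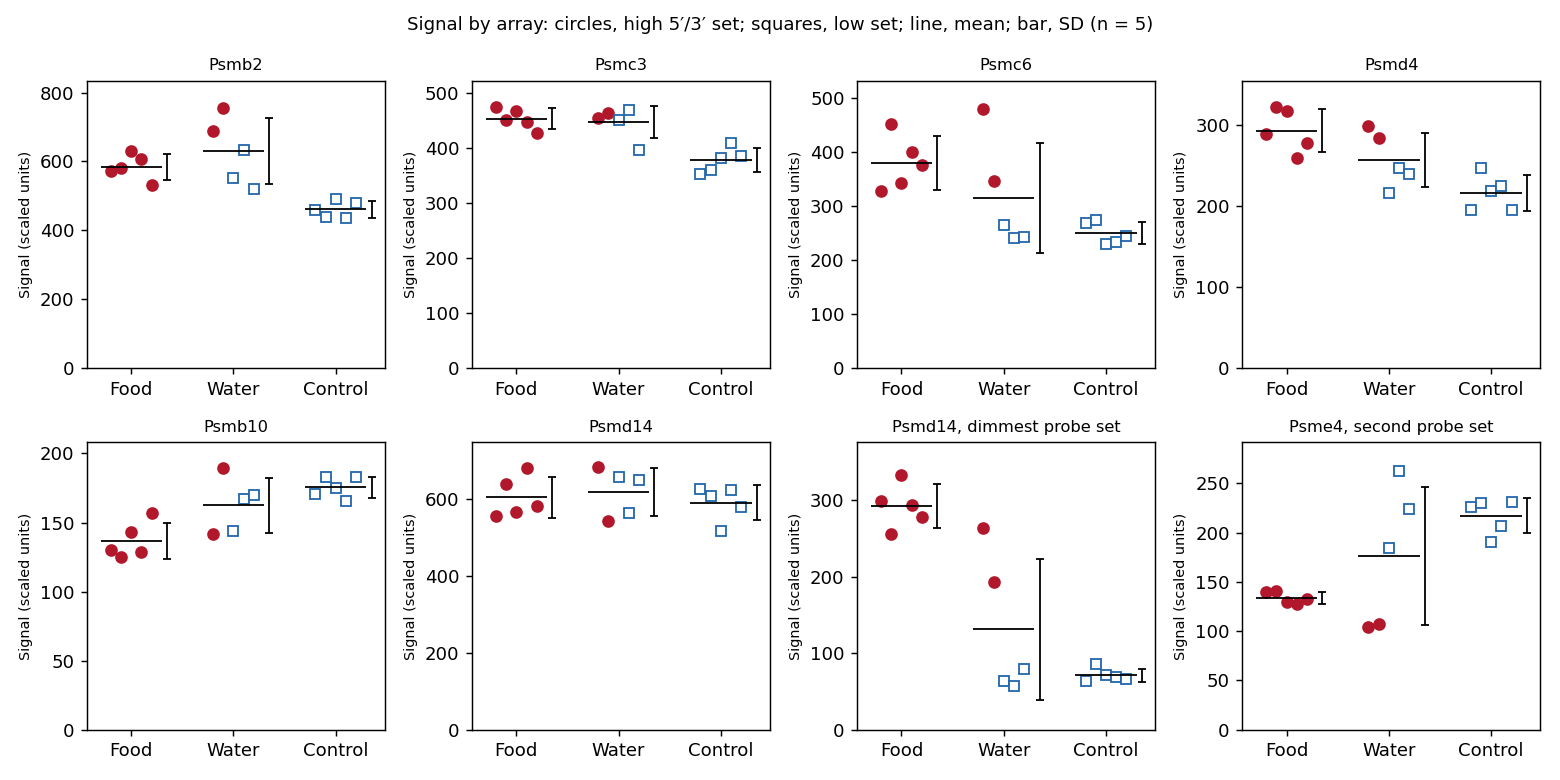
Signal in scaled units (vertical axis, from 0) on each array of the food-deprived, water-deprived and control groups for the 5 genes that passed, for Psmd14 and for 2 further probe sets, with filled circles for the high 5′/3′ set, open squares for the low set, a line at the mean and a bar of 1 SD (n = 5). The Psmb2 panel shows food-deprived and water-deprived arrays above all controls, and the Psmc6, Psmd4 and dim Psmd14 panels show the filled circles of the water-deprived group beside the food-deprived arrays.

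The probe sets of a gene did not always move alike. Of 9 genes with more than 1 probe set, 6 had more than 1 above the filter. For food deprivation 5 probe sets passed as higher and 1 as lower among 55 tested. The share that passed among all 21729 probe sets tested was not counted, so these counts have no background beside them. The 1 call beside the representatives was the dimmest probe set of Psmd14, the deubiquitinase of the cap. Its signal was 299, 256, 333, 294 and 279 in the food-deprived arrays, 263, 193, 63.3, 57.3 and 79.0 in the water-deprived arrays and 64.2, 85.3, 71.2, 68.6 and 66.9 in the control arrays. All food-deprived arrays lie above all controls, and water-deprived arrays 1 and 2 stand far above arrays 3 to 5, which lie among or just below the controls. The food-deprived difference was 1.82 ± 0.29, a 3.53-fold change with adjusted p = 0.0033, and 0.26 ± 0.19 with the array set as a term, while water-deprived arrays 1 and 2 exceeded arrays 3 to 5 by 1.56 ± 0.16 (adjusted p = 7.3e-05). The representative probe set of Psmd14 had signals of 555, 639, 567, 681 and 581 in the food-deprived arrays, 684, 544, 658, 563 and 649.8 in the water-deprived arrays and 626, 608, 517, 624 and 580.2 in the control arrays. Its groups overlap, and its food-deprived difference was 0.031 ± 0.092 (adjusted p = 0.87).

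Psme4, the PA200 activator of the core, also had probe sets that differed from each other, here by array set. The representative had signals of 147, 164, 151, 152 and 163 in the food-deprived arrays, 213, 208, 128, 229.7 and 249.7 in the water-deprived arrays and 203, 190.3, 201, 162 and 267 in the control arrays. The food-deprived arrays are the least spread, and control array 4 lies among them. Its food-deprived difference was -0.35 ± 0.15 (adjusted p = 0.15), -0.45 with the array set as a term, and its water-deprived difference was -0.0062 ± 0.15. A second probe set had signals of 139.8, 141, 129.5, 128 and 132 in the food-deprived arrays, 105, 107, 184, 262 and 224 in the water-deprived arrays and 226, 230.3, 190.4, 207 and 231 in the control arrays. There water-deprived arrays 1 and 2 and every food-deprived array lie below all controls, and the food-deprived difference was -0.63 ± 0.19 (adjusted p = 0.053), 0.33 with the array set as a term. Water-deprived arrays 1 and 2 were lower than arrays 3 to 5 on it, at -0.96 ± 0.13 (adjusted p = 0.00063). A further probe set gave 0.088 for food deprivation. A second probe set of Psmd11 also fell between the sets, at -0.63 ± 0.12 (adjusted p = 0.0039), with the representative at -0.050.

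The other activators and the inhibitor did not pass. Psme1 and Psme2 encode the subunits of the interferon-induced PA28 activator. The Psme1 signal was 1186, 1029, 1025, 812 and 1049 in the food-deprived arrays, 918, 1115, 714, 1160.0 and 1128 in the water-deprived arrays and 998, 497, 1034, 971 and 1239 in the control arrays. Control array 2 is the lowest of the 15 and widens the control range, which holds all food-deprived and water-deprived arrays. The Psme1 difference from control was 0.15 ± 0.20 for food deprivation, the largest SE of the 46, and 0.12 ± 0.20 for water deprivation. The Psme2 signal was 383, 419.7, 390.3, 374 and 483 in the food-deprived arrays, 457, 478, 341, 399 and 375 in the water-deprived arrays and 367, 288, 412, 462 and 416 in the control arrays. Control array 2 is again the lowest, and the groups overlap. The Psme2 difference was 0.083 ± 0.13 for food deprivation and 0.078 ± 0.13 for water deprivation. Psmf1 encodes PI31, an inhibitor of the core in vitro. Its signal was 341, 315, 294, 288 and 309 in the food-deprived arrays, 292, 328, 377, 377 and 387 in the water-deprived arrays and 382, 338, 388, 399 and 426 in the control arrays. Food-deprived array 1 alone of its group reaches into the control range, and water-deprived arrays 1 and 2 lie in the food-deprived range. The Psmf1 food-deprived difference was -0.31 ± 0.095 (adjusted p = 0.056), and -0.021 with the array set as a term. Its water-deprived difference was -0.13 ± 0.095 (adjusted p = 0.80).

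Of 7 assembly chaperones, 0 passed. Psmg1 pairs with Psmg2 to assemble the alpha ring. Its signal was 258, 263, 296, 308 and 316 in the food-deprived arrays, 279, 301, 353, 360.5 and 393 in the water-deprived arrays and 393, 298, 317, 418 and 369 in the control arrays. The food-deprived arrays overlap the control arrays only through control array 2, and they overlap the water-deprived arrays. The Psmg1 difference was -0.29 ± 0.12 for food deprivation (adjusted p = 0.12), 0.037 with the array set as a term, and -0.085 ± 0.12 for water deprivation. Psmg3, which pairs with Psmg4, was higher on every food-deprived than on every control array, between 180.4 and 186.4 in food-deprived, 135.8 and 250.1 in water-deprived and 116 and 147 in control arrays. Its difference was 0.43 ± 0.13 (adjusted p = 0.055), and -0.16 with the array set as a term, and water-deprived arrays 1 and 2 exceeded arrays 3 to 5 by 0.58 ± 0.12 (adjusted p = 0.0052). Psmg2 and Psmg4 lay at 0.087 and -0.065 for food deprivation, and the chaperones of the cap, Psmd5, Psmd9 and Psmd10, at -0.044, 0.13 and 0.24. Water-deprived differences of these 5 genes ran from -0.075 to 0.090. That of Psmg3 was 0.37 ± 0.13 (adjusted p = 0.72), and 0.13 with the array set as a term. A second probe set of Psmd9, dim and near the filter, gave 0.60 ± 0.23 for food deprivation (adjusted p = 0.11), and -0.081 with the array set as a term.

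The 2 genes that match by name only did not pass. The Psme3ip1 signal was 199, 202, 218, 240.2 and 286 in the food-deprived arrays, 202, 218, 166, 238 and 236 in the water-deprived arrays and 286, 235, 230.0, 240.5 and 222 in the control arrays. Water-deprived array 3 is the lowest, and the groups overlap. The Psme3ip1 difference was -0.084 ± 0.12 for food deprivation and -0.19 ± 0.12 for water deprivation (adjusted p = 0.77). Psmc3ip differed from control by 0.24 ± 0.16 for food deprivation and 0.071 ± 0.16 for water deprivation.

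**Figure D3:**
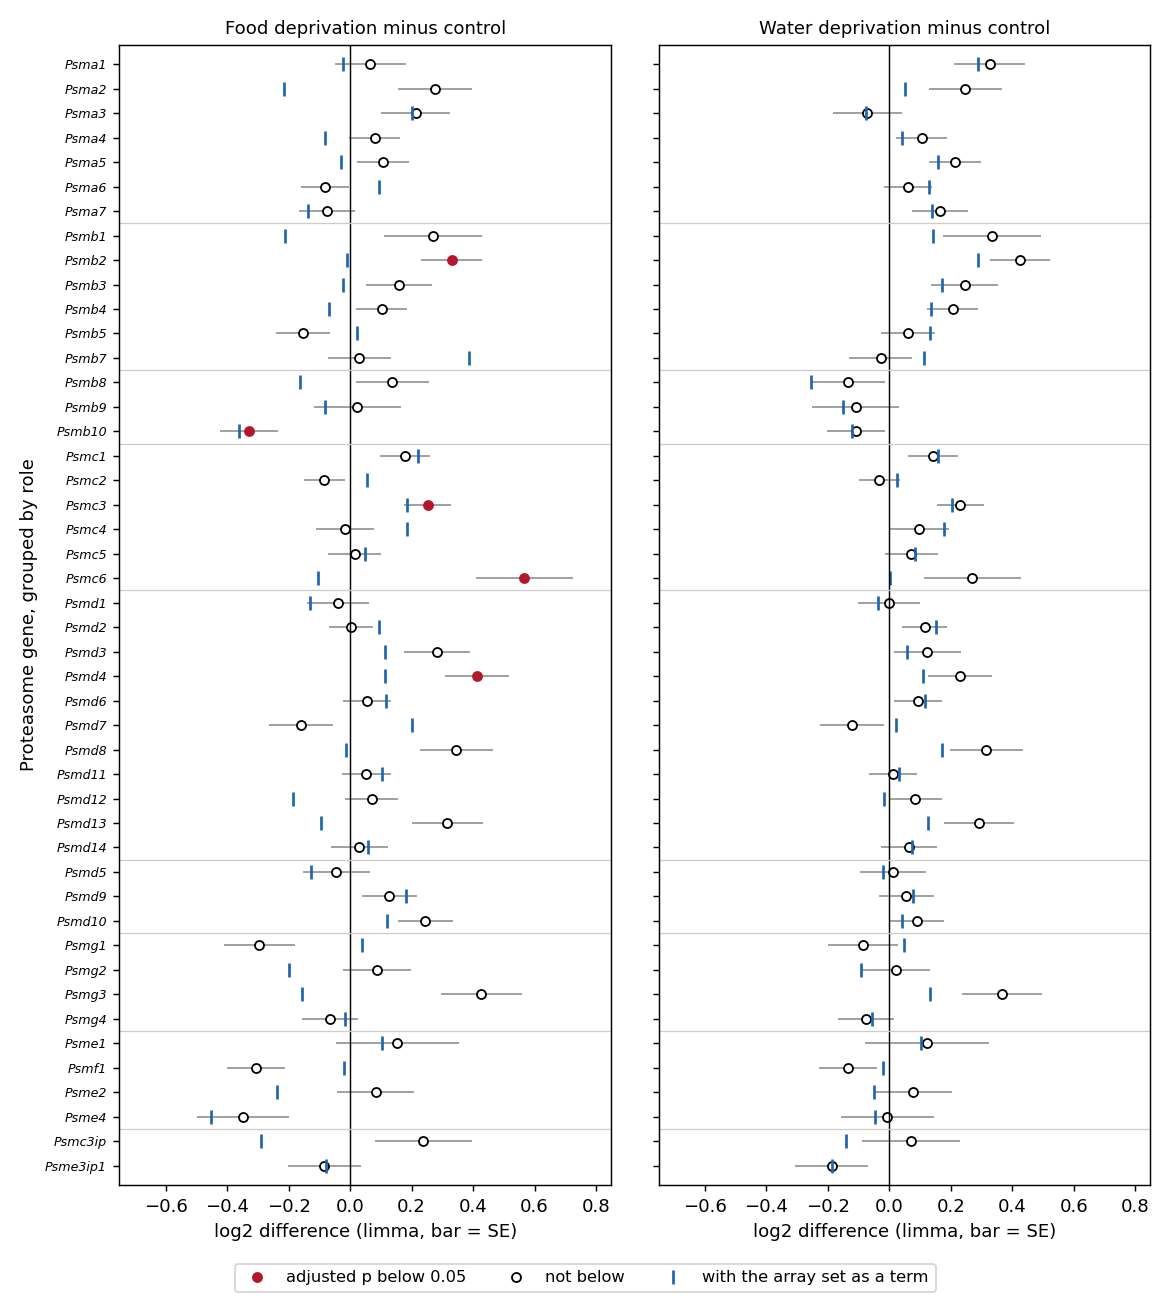
Log2 differences from control for the 46 genes (rows, grouped by role) in food-deprived (left) and water-deprived (right) arrays, with the limma SE as a bar, filled circles for genes that passed and a short vertical line for the value with the array set as a term. In the left panel the lines of Psmc6 and Psmb2 lie at or below 0 while those of Psmb10 and Psmc3 lie near their circles, and in the right panel no circle is filled.

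The difference between the array sets, which is that of water-deprived arrays 1 and 2 from arrays 3 to 5, passed as higher for 5 of the 46 genes, Psma2, Psmb2, Psmc6, Psmd13 and Psmg3, beside 6.48% of all genes tested. It passed as lower for 2, Psmb7 and Psmd7, beside 8.09% of all genes. These 7 calls rest on 2 arrays against 3, and 1 call was left without water-deprived array 1 and 1 without water-deprived array 2. In limma 0 of the 46 genes passed in any comparison with the array set as a term, beside 0% of all genes for food against control, 0.0434% for water against control and 0% for food against water. The median SE of the food-deprived difference over the 46 was then 0.15, beside 0.10 without it. Across the 46 genes the food-minus-control difference and the set difference, which have no array in common, had a Pearson correlation of 0.74 and a Spearman correlation of 0.74, and 33 of 46 (71.7%) had the same sign. Over all 11510 genes these values were 0.68, 0.64 and 74.1%. Genes are not independent replicates, and the correlations describe the genes of these arrays.

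**Figure D4:**
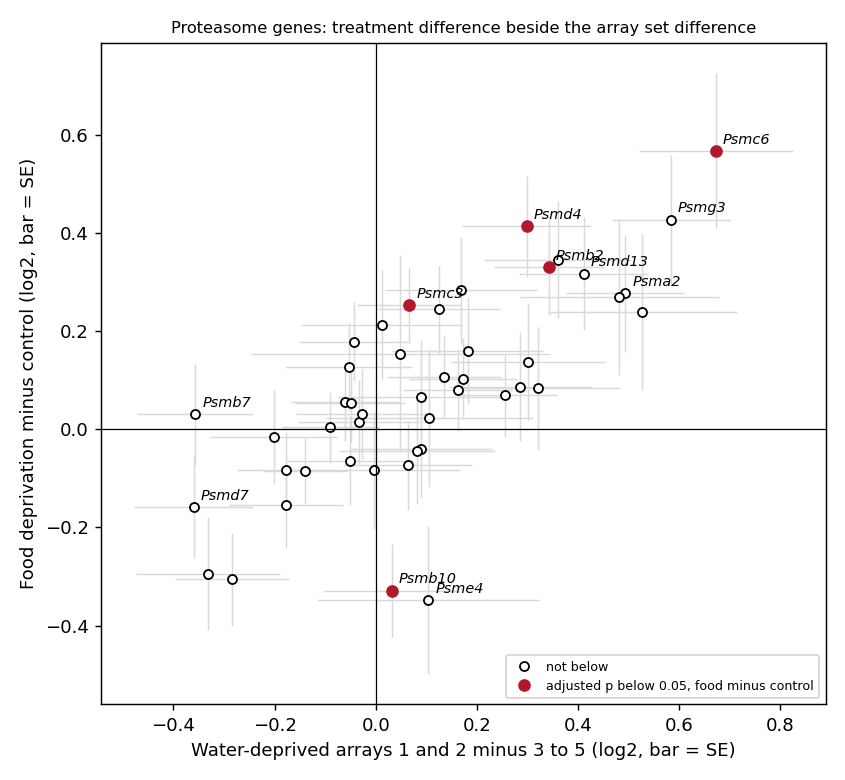
Food-minus-control log2 difference (vertical axis) against the log2 difference between water-deprived arrays 1 and 2 and arrays 3 to 5 (horizontal axis) for the 46 genes, with the SE of each as grey bars and filled circles for genes that passed in food against control. Psmc6, Psmd4 and Psmb2 lie to the upper right, while Psmb10 and Psme4 lie low near the vertical line, with set differences of 0.032 and 0.10.

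The 46 genes varied little together within groups. After group means were removed, the median Pearson correlation over the 1035 pairs was 0.098 across the 15 arrays, beside 0.003 over all pairs of genes tested. With group means alone removed it was 0.097 among the alpha genes, 0.025 among the constitutive beta genes, 0.32 among the 3 immunoproteasome genes, 0.032 among the ATPases and 0.040 among the non-ATPase subunits. The alpha and constitutive beta values depend on the setting: after group and array set means were removed the median was 0.087 over all 46, 0.26 among the alpha genes, 0.21 among the constitutive beta genes and 0.29 among the immunoproteasome genes, beside -0.003 among the ATPases, 0.068 among the non-ATPase subunits and 0.005 over all genes. The genes share arrays and RNA pools, so these are descriptions. By the median correlation with the other genes, Psma2 (0.40), Psmc3ip (0.34) and Psmg4 (0.27) came first, and Psmb7 (-0.29) last.

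The genes that act around the proteasome moved in both directions in food-deprived arrays, and 0 of them passed for water deprivation or for food against water. For food deprivation the counts below stand beside 3.12% of all genes tested as higher and 2.62% as lower, and with lists of 2 to 21 genes 1 call makes up a large share. Among 12 tested subunits and partners without a Psm name, 1 passed as higher for food deprivation, Akirin2, which carries proteasomes into the nucleus. Akirin2 had a signal from 63.3 to 89.4 with a median of 76.8 in food-deprived arrays, from 20.2 to 62.5 with a median of 54.0 in water-deprived arrays and from 22.0 to 47.5 with a median of 35.9 in control arrays. Its food-deprived arrays lie above all others, and the difference from control was 0.86 ± 0.22 (adjusted p = 0.026), or 0.17 with the array set as a term. Adrm1, a ubiquitin receptor of the cap, had a difference of -1.01 ± 0.31 (adjusted p = 0.054), or 0.56 with the array set as a term. Pomp, which matures the core, and Usp14, a deubiquitinase on the cap, lay at 0.0072 and 0.080.

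Of 7 tested genes that control proteasome transcription 0 passed. Nfe2l1 differed from control by 0.38 ± 0.12 for food deprivation (adjusted p = 0.063), or 0.13 with the array set as a term, and Nfe2l2, which raises subunit genes under oxidative stress, by -0.069 ± 0.14. Of 21 conjugating enzymes, Ube2j1 (0.53, adjusted p = 0.017) and Ube2s (0.39, adjusted p = 0.041) rose and Ube2n fell (-1.23, adjusted p = 0.022), with values of 0.086, 0.20 and 0.31 with the array set as a term. Of 9 ubiquitin ligases 2 passed as lower, Nedd4 (-0.74, adjusted p = 0.0050) and Syvn1 (-0.56, adjusted p = 0.017), with -0.24 and -0.10 with the array set as a term. Of 10 shuttle factors and partners of the segregase Vcp and of 2 ubiquitin-activating enzymes 0 passed. Fbxo32, Trim63 and Maff were below the filter.

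Markers of other cells that the dissected tissue may hold differed between arrays. For food deprivation 2 of 10 tested endothelial and mural markers passed as higher, beside 3.12% of all genes tested, Cldn5 (0.64, adjusted p = 0.041, and 0.93 with the array set as a term) and Acta2 (0.56, adjusted p = 0.034, and 0.032), and 0 of 10 neuronal, 7 oligodendrocyte, 7 astrocyte and tanycyte and 7 choroid plexus and ependymal markers passed. The summed signal of the endothelial and mural list ranged from 991 to 1277 on food-deprived, 795 to 1077 on water-deprived and 827 to 1072 on control arrays. That of the neuronal list ranged from 6429 to 9821 on food-deprived, 5352 to 10202 on water-deprived and 4077 to 10992 on control arrays. The oligodendrocyte markers had a median food-minus-control difference of 0.56, with 7 of 7 above 0, and a median food-minus-water difference of 0.71, with 7 of 7 above 0, and their median against control was -0.032 with the array set as a term. Their summed signal ranged from 11110 to 15795 on food-deprived, 4902 to 13222 on water-deprived and 5531 to 15885 on control arrays. The choroid plexus and ependymal markers had a median food-minus-control difference of 0.49, with 5 of 7 above 0, and of -0.78, with 0 of 7 above 0, with the array set as a term. Their summed signal ranged from 5434 to 10152 on food-deprived, 2558 to 12163 on water-deprived and 3558 to 8198 on control arrays. The astrocyte and tanycyte markers had a median difference of 0.10, with 4 of 7 above 0, and their summed signal ranged from 9960.0 to 10734 on food-deprived, 7106 to 10965 on water-deprived and 7901 to 12071 on control arrays. The median difference between the array sets was 0.90 for choroid plexus and ependymal and 0.59 for oligodendrocyte markers. In each of these lists 7 of 7 lay above 0. The median was -0.12 for neuronal, -0.20 for astrocyte and tanycyte, -0.038 for endothelial and mural and -0.022 for microglial markers. Over all genes tested it was 0.027. The part of the markers in the proteasome values and in the array set values was not tested.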

How the data were processed

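RNA of the rat subfornical organ was measured on 15 Affymetrix arrays, with sample groups taken from the labels' titles. The deposited unit is a linear intensity for each probe set, and the authors used GCOS 1.2 per the submitters' processing notes, whose role is not given in the sources used here. Every array has a trimmed mean of 100.0 (2% trimmed at each end), so the values were scaled per array and were used without further normalization. Affymetrix control probe sets (57) were left out. The other probe sets with a mean log2 value above 5.11, the 30th percentile, were tested (21729).

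log2(signal + 16) was fitted by group means in R 4.3.3 with limma 3.58.1 (12 residual degrees of freedom, 11 with the array set as a term; variance trend; two-sided tests), with Benjamini-Hochberg adjustment over all probe sets tested. The fit was tested on simulated data. The array set splits the mean log2 5′/3′ ratio at -1. The members, gene lists, motifs and tests were chosen with earlier results of these data known. Members named with all arrays are those that passed, the 3 with the smallest p where none passed, and a fixed set. Psmb6 of that set has no probe set of its own, and Psmc6, Psmd14 and Psme4 are shown with a further probe set. Psmd14, outside these rules, is shown for its dimmest probe set, which passed. Only a few of the genes around the proteasome are named: those that passed, up to 4 per list, and a fixed set. Arrays give no counts, so their number limits the precision, and depth does not apply.

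Symbols are those of the supplied platform annotation, gene coordinates and promoter sequences those of RefSeq (GRCr8), in which all 46 genes were found, and 17 of them have pseudogenes there. Probe positions were not used. Same-numbered arrays of different groups had correlations of their deviations from -0.36 to 0.37, so the numbers were not taken to pair them. The alternatives were offsets of 1 and 64, median centring, quantile normalization, a filter at the 50th percentile or none, no variance trend, array weights, only the 10 arrays compared, the replicate block, the array set, the 5′/3′ ratio, the dimmest probe set of a gene and leaving out each array. Tables and figures used Python 3.11.15 with pandas 2.3.3, numpy 2.4.6 and matplotlib 3.10.9.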

Additional observations from a re-analysis of the deposited data

Results flagged for a closer look

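Of 60 sets of 5 arrays (20 named genes in 3 groups), 5 held an array that stood apart from its group, with a gap to the nearest array above 0.71 of the group's range, where chance gives about 1 in 20. Food-deprived array 4 was the highest for Psma3, with a signal of 316 and a gap of 0.764 of the range. Food-deprived array 2 was the lowest for Psmd7, with a signal of 328 and a gap of 0.746. Water-deprived array 5 was the lowest for Psmc3, with a signal of 396 and a gap of 0.773, and water-deprived array 3 the lowest for Psme4, with a signal of 128 and a gap of 0.723. Control array 2 was the lowest for Psme1, with a signal of 497 and a gap of 0.731.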

How the results depend on the processing

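The 4 genes higher in food-deprived than in control arrays became 1 with median centring, 2 with an offset of 1, 2 without the variance trend, 2 with the replicate block, 11 with array weights and 9 with only the 10 arrays compared. With the array set as a term or the 5′/3′ ratio as a covariate they became 0, and leaving out each array gave 0 to 7. The 1 gene lower became 0 with quantile normalization, 0 with the replicate block, 0 with the array set, 0 with the 5′/3′ ratio, 2 with median centring, 4 with array weights and 2 with only the 10 arrays compared, and leaving out each array gave 0 to 3. Counts for water deprivation against control stayed at 0 under every setting run, as did those for food against water deprivation except for 1 higher and 2 lower with array weights. The 7 genes that differed by array set became 1 to 8 when each array was left out, an alternative chosen after seeing the data. With the array set as a term, 24 of the 46 food-deprived differences from control changed sign, a count not made over all genes. Among the genes that passed or had the 3 smallest p-values of a comparison in a direction, the values that changed sign in any setting were those of Psmc6 for food deprivation against control (-0.10 with the array set, -0.042 on its dimmest probe set) and against water deprivation (-0.11 and -0.20), of Psmb2 for food deprivation against control (-0.011 with the array set) and of Psmd7 for water deprivation against control (0.024 with the array set, 0.16 on its dimmest probe set). The replicate block ended the calls of Psmb2, Psmc3 and Psmb10 (adjusted p = 0.085, 0.089 and 0.071). The cause of these changes was not tested. With 5 pools a group and an SE near 0.10, small differences that did not pass are not shown to be absent, and the replicate numbers are not known to pair the arrays.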
